A study of Mus musculus with 2 samples.

Results

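The 10 genes described here are the ephrin-B ligands (Efnb1, Efnb2 and Efnb3), the Eph-B receptors (Ephb1, Ephb2, Ephb3, Ephb4 and Ephb6) and the ligand and receptor pair Efna1 and Epha2, chosen by symbol from the 24319 rows of each expression list. All 10 had a row in both lists. RNA was sequenced from lymphatic endothelial cells (LECs) of the skin of C57BL/6 mouse embryos at E15.5 (embryonic day), with 1 library labelled wild type and 1 labelled Dot1l knockout. Dot1l encodes the methyltransferase of a lysine in the core of histone H3, and the protocol calls the deletion endothelial without naming the Cre line that made it. Each library was made from RNA pooled from 2 to 3 biological replicates, so there is no replicate check, and no p-value or standard deviation is given. Values are FPKM, the number of fragments per kilobase of transcript and per 1000000 fragments mapped, which allows levels to be compared between genes.

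Ephs are receptor tyrosine kinases and ephrins are their ligands, and both sit in the cell membrane, so that signalling needs contact between cells. The receptor signals forward into its own cell, and ephrin-Bs, which cross the membrane and end in a tail that binds PDZ proteins, also signal in reverse, whereas ephrin-As are held by a lipid anchor. In blood vessels ephrin-B2 marks arteries and EphB4 marks veins. In lymphatic vessels ephrin-B2 and EphB4 are both needed for valves and for remodelling of the network.

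The targeted gene and the cell markers set the frame for all values below. Dot1l was 5.86 FPKM in the wild type library and 10.4 FPKM in the other, a value over the whole gene that does not check the label, so that library is called knockout-labelled throughout. The fixed lists of LEC and pan-endothelial markers were detected in both libraries, except Ccl21a, which was listed at 0 in the knockout-labelled library. The 14 LEC markers summed to 1829 and 1098 FPKM. Within these sums Lyve1 was 526 and 552.5 FPKM, Stab1 68.6 and 231 FPKM, and Mmrn1 669 and 128 FPKM. Of the 13 at 1 FPKM or more in a library 9 were lower by 2-fold or more, 3 were higher (Itga9, Stab1 and Stab2) and Lyve1 lay within 2-fold. The median difference of these 13 in log2(FPKM + 1), knockout-labelled library minus wild type, was -2.10. The 24 pan-endothelial genes summed to 2042 FPKM in wild type and 512 FPKM in the knockout-labelled library. All 18 macrophage markers (70.1 and 7516 FPKM in sum) and all 9 mast cell markers (111 and 13014 FPKM in sum) were higher in the knockout-labelled library, while 14 of 15 fibroblast and 10 of 10 pericyte and smooth muscle markers tested were lower by 2-fold or more. In sum fibroblast markers were 4737 and 1130 FPKM, those of pericytes and smooth muscle 208 and 32.4 FPKM, and those of keratinocytes 236 and 111 FPKM. Melanocyte and Schwann cell markers summed to 77.9 and 55.5 FPKM, skeletal muscle markers to 33.4 and 8.94 FPKM, and lymphocyte markers to 6.10 and 19.8 FPKM. In wild type C1qc, Fcer1a and 5 of 12 lymphocyte markers were listed at 0, and in the knockout-labelled library Myod1 and 4 of the lymphocyte markers were. The part of these cell markers in the values of the ephrin and Eph genes was not tested. Nor was the part of macrophages in the values of Lyve1, Stab1 and Stab2 tested. Fewer cells of a type and less RNA per cell cannot be told apart in such bulk libraries.

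All 10 ephrin and Eph genes had a lower value in the knockout-labelled library, as did 49.8% of all tested genes. On the scale log2(FPKM + 1), 7 of the 10 were lower by 2-fold or more (Efnb1, Efnb2, Ephb1, Ephb2, Ephb3, Ephb4 and Efna1) and 3 lay within 2-fold (Efnb3, Ephb6 and Epha2). Among the 13296 genes at 1 FPKM or more in at least 1 library, 15.49% were lower by 2-fold or more and 16.8% higher by 2-fold or more. The median difference of the 10 genes was -1.38 on that scale, against 0.00 for all genes. By mean level over both libraries, 3 of 3 members between 10 and 100 FPKM were lower by 2-fold or more, where 12.1% of all genes were. Of 6 members between 1 and 10 FPKM 4 were lower, where 18.8% of all genes were. With both libraries brought to a sum of 1000000, 9 of the 10 were lower by 2-fold or more, the background was 25.0% lower and 14.3% higher, and the median of all genes moved to -0.33.

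**Figure D1:**
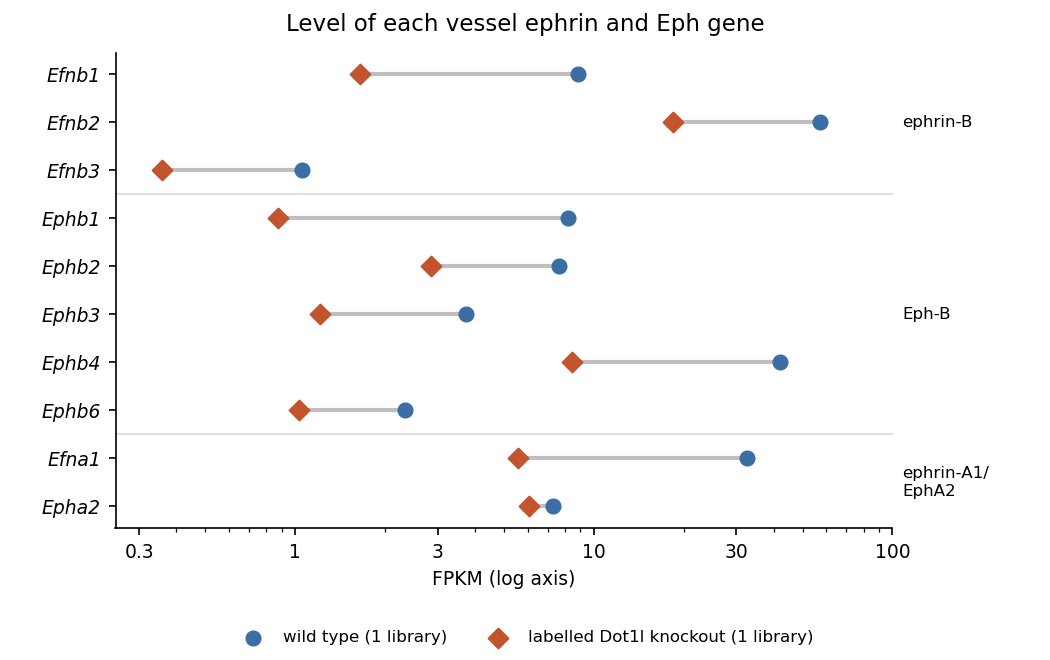
Deposited FPKM of the 10 genes on a log axis, with circles for the wild type library and diamonds for the Dot1l knockout-labelled library (1 library each, no error bars). Every diamond lies to the left of its circle, by the most for Ephb1 (8.22 and 0.874 FPKM) and by the least for Epha2 (7.30 and 6.09 FPKM).

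Counting error was estimated for each gene from the depth. The low values of long genes with 1 annotated transcript lay near whole multiples of 1 fragment, within 0.1 of a whole number for 83.0% of 159 wild type values and 76.0% of 175 values of the knockout-labelled library. The step of each library was picked from 500 candidates by this same share and its number of values. The shares are therefore not an independent check of the depth. Unless the values were scaled further, these steps correspond to some 10200000 and 9090000 fragments. With them each FPKM was turned into an estimated number of fragments, using the shortest annotated coding transcript less 200 nt. The 95% intervals of folds below are exact conditional binomial (Clopper-Pearson) intervals from those numbers, cover counting error only and compare these 2 libraries, not the genotypes. Folds are ratios of the deposited FPKM, wild type over knockout-labelled library, so they can pass 2 where the log2(FPKM + 1) difference does not.

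The promoters of 4 of the genes are shown because these genes span the range of folds: Ephb1 (9.41) and Epha2 (1.20) are the extremes, and Efnb2 and Ephb4 are the most abundant. Sequences are from RefSeq on build GRCm38.p6, whereas the submitters' processing notes name mm9, and run from 250 bases before to 50 bases after the gene start on the strand of the gene. A window was found for 9 of the 10 genes (not Efnb3), with a pair of starts for Efna1. Capitals mark the GC box GGGCGG or its reverse complement CCGCCC, the letters bound by SP1-type factors. Efnb2 lies at chr8:8661193-8661492 (minus strand), Ephb4 at chr5:137349859-137350158 (plus strand), Ephb1 at chr9:102354644-102354943 (minus strand) and Epha2 at chr4:141300971-141301270 (plus strand).
Efnb2 promoter: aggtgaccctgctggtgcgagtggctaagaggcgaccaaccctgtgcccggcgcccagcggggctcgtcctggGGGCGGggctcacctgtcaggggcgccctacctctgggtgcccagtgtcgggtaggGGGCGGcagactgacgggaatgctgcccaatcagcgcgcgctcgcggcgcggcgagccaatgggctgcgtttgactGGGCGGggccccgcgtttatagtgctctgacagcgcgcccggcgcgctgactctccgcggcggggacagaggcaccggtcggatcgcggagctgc
Ephb4 promoter: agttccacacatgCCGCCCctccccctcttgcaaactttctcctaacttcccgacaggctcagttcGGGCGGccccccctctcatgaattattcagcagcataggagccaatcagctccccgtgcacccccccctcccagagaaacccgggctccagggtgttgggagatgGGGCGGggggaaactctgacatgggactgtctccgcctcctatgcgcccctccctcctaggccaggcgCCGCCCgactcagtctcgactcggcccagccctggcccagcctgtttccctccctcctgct
Ephb1 promoter: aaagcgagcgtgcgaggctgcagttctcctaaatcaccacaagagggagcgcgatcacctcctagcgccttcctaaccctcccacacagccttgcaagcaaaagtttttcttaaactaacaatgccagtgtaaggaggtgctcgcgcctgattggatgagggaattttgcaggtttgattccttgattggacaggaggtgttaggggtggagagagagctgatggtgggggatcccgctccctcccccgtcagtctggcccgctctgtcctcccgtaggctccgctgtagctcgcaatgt
Epha2 promoter: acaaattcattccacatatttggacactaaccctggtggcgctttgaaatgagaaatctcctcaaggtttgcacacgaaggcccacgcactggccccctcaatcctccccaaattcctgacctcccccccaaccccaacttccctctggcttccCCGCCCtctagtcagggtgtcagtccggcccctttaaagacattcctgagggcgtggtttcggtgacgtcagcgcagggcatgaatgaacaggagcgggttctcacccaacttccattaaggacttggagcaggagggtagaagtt

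The GC box letters occurred 3 times in the Efnb2 window, 4 times in that of Ephb4, once in that of Epha2 and not in that of Ephb1. Over the 10 windows 7 held it, both Efna1 windows among them, compared with 35.7% of all 32851 promoter windows. The comparison was not matched for CpG content. The windows were CpG-rich in part: Efnb2 had 35 CpG dinucleotides, more than 93.1% of all windows, while Ephb4 and Ephb1 each had 14 and Epha2 had 10, with a median of 7 over all windows. Further letters were searched on both strands, with no requirement that motifs not overlap. The ETS letters CCGGAA were found in the windows of Ephb2 and Ephb6 (14.9% of all windows), the SOX letters ACAAT in Ephb1 (31.0%), the RBPJ letters TGGGAA in Efnb1 (25.6%) and the nuclear receptor letters AGGTCA in Epha2 (16.3%). The forkhead letters GTAAACA (3.65% of all windows) and the AP-1 letters TGACTCA (5.20%) were in none of the 10. These matches describe letters in short windows and say nothing of binding.

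Efnb2, the arterial ephrin, had the highest level of all 22 ephrin and Eph genes in both libraries. It was 57.1 FPKM in wild type and 18.4 FPKM in the knockout-labelled library, from about 2674 and 767 fragments. The value in the knockout-labelled library was 3.11-fold lower, with a counting interval of 2.87 to 3.37, and the log2 difference was -1.58. Even at that lower level, Efnb2 was above 81.9% of all rows of its library, compared with 95.0% in wild type. Of all tested genes, 6.84% had a lower log2 difference than Efnb2.

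The other ephrin-B ligands were far less abundant. Efnb1, the X-linked ephrin-B that acts at tissue boundaries, was 8.82 FPKM in wild type and 1.64 FPKM in the knockout-labelled library. Its fold was 5.37, with a counting interval of 3.92 to 7.51. The fold of Efnb1 was 1.73 times that of Efnb2 (interval 1.24 to 2.42), so these ligands did not keep the same proportion. Efnb3, best known from axon guidance in the nervous system, was 1.06 and 0.358 FPKM, from about 32 and 10 fragments. Its fold of 2.95 had an interval from 1.41 to 6.72, and its log2 difference of -0.60 lay inside 2-fold because of the added 1 FPKM. Efnb2 made up 85.2% of the summed ephrin-B FPKM in wild type and 90.2% in the knockout-labelled library.

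Ephb4, the venous receptor that binds ephrin-B2, was the second most abundant gene of the family in both libraries. It was 42.0 FPKM in wild type and 8.42 FPKM in the knockout-labelled library, from about 1516 and 271 fragments. The fold was 4.99 with a counting interval of 4.38 to 5.69, and the log2 difference was -2.19, lower than in all but 2.44% of tested genes. Ephb4 therefore differed more than its ligand: its fold was 1.60 times that of Efnb2, with an exact conditional interval of 1.38 to 1.88. Within a library the ratio of Efnb2 to Ephb4 FPKM was 1.36 in wild type and 2.18 in the knockout-labelled library. The Zan gene overlaps exons of Ephb4 on the opposite strand in the reference annotation, but was listed at only 0.0941 and 0.0134 FPKM.

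Ephb1 had the largest fold of the 10 genes. This receptor, which guides retinal axons at the optic chiasm, was 8.22 FPKM in wild type and 0.874 FPKM in the knockout-labelled library, from about 274 and 26 fragments. The fold was 9.41, with an interval of 6.28 to 14.7. Its rank among the 10 genes was 5 in wild type and 9 in the knockout-labelled library. The fold of Ephb1 was 1.89 times that of Ephb4 (interval 1.23 to 3.00) and 3.49 times that of Ephb2 (interval 2.15 to 5.80). Its promoter window, printed above, was the only one of the 4 shown without a GC box. The windows of Efnb1 (fold 5.37) and Ephb2 (fold 2.69), not printed, held none either. Whether the GC box bears on the fold was not tested. In the reference annotation the gene Gm26846 overlaps Ephb1 on the opposite strand, and where counting ignores strand the reads of such a pair cannot be told apart. Gm26846 had no row in the expression lists, so its level is not known.

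Ephb2 and Ephb3, receptors that act together in axon pathways and in the intestinal crypt, differed less than Ephb1 and Ephb4. Ephb2 was 7.65 and 2.84 FPKM, a fold of 2.69 with an interval of 2.11 to 3.46. Ephb3 was 3.73 and 1.21 FPKM, a fold of 3.09 with an interval of 2.198 to 4.43. Both counting intervals stayed above 2-fold, and on the log2(FPKM + 1) scale the differences were -1.17 and -1.10. Coding transcripts of Ephb2 range from 3653 to 10902 nt in the annotation, so the number of fragments behind its value is the least certain of these genes.

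Ephb6, a receptor whose kinase domain is inactive, was 2.33 FPKM in wild type and 1.03 FPKM in the knockout-labelled library. The fold was 2.25, with an interval of 1.49 to 3.48 that includes 2-fold. The 5 Eph-B receptors together summed to 63.9 and 14.4 FPKM, 4.45-fold lower in the knockout-labelled library, against 67.0 and 20.4 FPKM and 3.29-fold for the 3 ephrin-B ligands. The ligand sum was therefore 1.05 times the receptor sum in wild type and 1.42 times in the knockout-labelled library. Ephb4 accounted for 65.7% and 58.6% of the receptor sum.

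The ephrin-A1 and EphA2 pair was divided. Efna1, an ephrin-A of endothelium that is induced by tumour necrosis factor, was 32.7 FPKM in wild type and 5.57 FPKM in the knockout-labelled library. The fold was 5.86 with an interval of 4.47 to 7.80, and the log2 difference of -2.36 was the lowest of the 10 genes. Epha2, the receptor for ephrin-A1 that is also prominent in epithelia, was 7.30 and 6.09 FPKM. Its fold of 1.20 had an interval from 0.998 to 1.44. At this depth and on the deposited scale, a difference of Epha2 was therefore not separable from counting error. With each library at a sum of 1000000 its log2 difference was -0.57, against -0.23, and no interval was computed on that scale. The fold of Efna1 was 4.89 times that of Epha2, with an interval of 3.49 to 6.87. The ratio of ligand to receptor was 4.47 in wild type and 0.916 in the knockout-labelled library. The rank of Epha2 among the 10 genes was 7 in wild type and 3 in the knockout-labelled library.

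**Figure D2:**
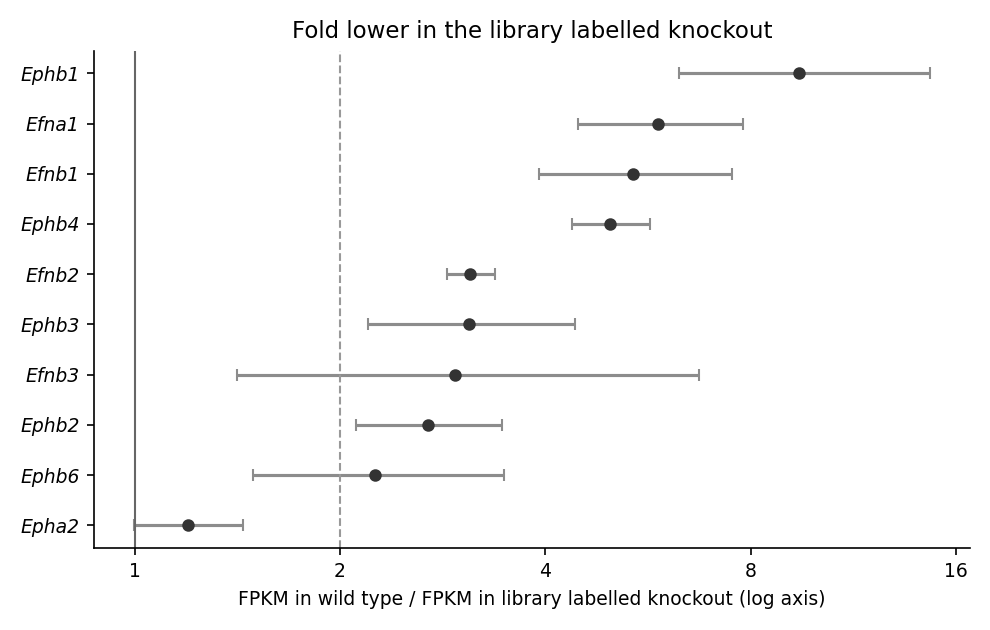
FPKM in wild type divided by FPKM in the Dot1l knockout-labelled library for each gene, on a log axis, with bars for the 95% counting interval from estimated fragments (1 library per genotype, so the bars hold no variation between embryos). The solid line marks no difference and the dashed line 2-fold. Intervals of 7 genes lie wholly beyond 2-fold, from Ephb2 (2.69) to Ephb1 (9.41), and that of Epha2 reaches 1.

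The remaining ephrin-A and Eph-A genes were low, and 7 of 12 reached 1 FPKM in a library. Of these 7, 5 were lower by 2-fold or more (Efna4, Epha3, Epha4, Epha5 and Epha7) and none was higher, beside 15.49% and 16.8% of all tested genes. The median of the 7 was -1.20. Epha3, a receptor of mesenchymal and neural cells, was 6.62 and 0.773 FPKM. Epha4 was 7.11 and 2.32 FPKM, Epha5 1.87 and 0.215 FPKM, and Epha7 4.14 and 1.26 FPKM. Among the ligands Efna4 was 4.47 and 1.38 FPKM, Efna5 4.42 and 2.83 FPKM, and Efna2 3.11 and 2.11 FPKM. The rest stayed under 1 FPKM, with Epha1 at 0.910 and 0.703, Efna3 at 0.383 and 0.207, Epha8 at 0.192 and 0.0480, and Epha10 at 0.0578 and listed at 0. Epha6 was listed at 0 in wild type and at 0.0270 FPKM in the knockout-labelled library, which is about 1 fragment. Of the 22 family genes Epha6 alone had a higher value in the knockout-labelled library. With a pseudocount of 5 only 1 of the 7 was lower by 2-fold or more.

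All 22 ephrin and Eph genes summed to 204 FPKM in wild type and 58.3 FPKM in the knockout-labelled library, a 3.50-fold lower sum. The 10 vessel genes held 83.7% and 79.6% of it. Efnb2 took 28.0% of the sum in wild type and 31.5% in the knockout-labelled library, while Ephb4 took 20.6% and 14.4% and Efna1 16.0% and 9.56%. Epha2 took 3.58% and 10.4%. Its share of the 9 Eph-A receptors was 25.9% in wild type and 53.3% in the knockout-labelled library.

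**Figure D3:**
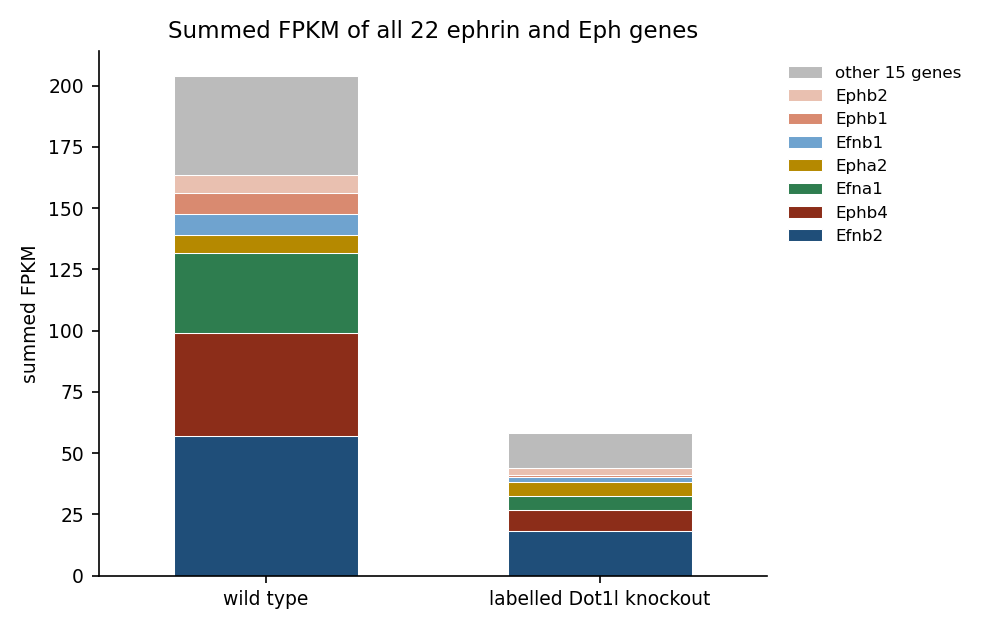
Summed FPKM of the 22 ephrin and Eph genes in each library, as stacked bars from 0 with 1 colour per gene and the other 15 in grey. The bar is 204 FPKM high in wild type and 58.3 FPKM in the knockout-labelled library, and among the 7 coloured segments that of Epha2 changes least in height.

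Levels of the ephrin and Eph genes were next set against those of the endothelial markers. The pan-endothelial list had a median difference of -1.96, with 20 of 24 genes lower by 2-fold or more. Relative to that median the 10 genes lay on both sides: Ephb1 (-0.34), Ephb4 (-0.23) and Efna1 (-0.40) were below it and the other 7 above it. Efnb1 (0.07) and Efnb2 (0.38) were near it, Ephb2 (0.79) and Ephb3 (0.86) were higher, and Ephb6 (1.25), Efnb3 (1.36) and Epha2 (1.73) were more than 2-fold above. No member was lower by 2-fold or more than the pan-endothelial median on this scale. The added 1 FPKM shrinks the differences of genes at low levels most. With a pseudocount of 0.1 the pan-endothelial median was -2.03. Ephb1 (-3.095) was then more than 2-fold below it and Efnb1 (-2.36) was also below. Efnb3 (-1.33) and Ephb6 (-1.10) were within 2-fold of it, while Epha2 (-0.26) stayed more than 2-fold above. For 2 junction genes taken as examples after their values were seen, the ratio of Efnb2 to Pecam1 was 0.262 in wild type and 0.373 in the knockout-labelled library, and to Cdh5 0.252 and 0.533. The ratio of Ephb4 to Pecam1 was 0.193 and 0.171, and to Cdh5 0.185 and 0.245. The medians of the fibroblast, pericyte and smooth muscle, and keratinocyte lists were -1.91, -2.56 and -1.07, and differences between these lists were not tested.

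**Figure D4:**
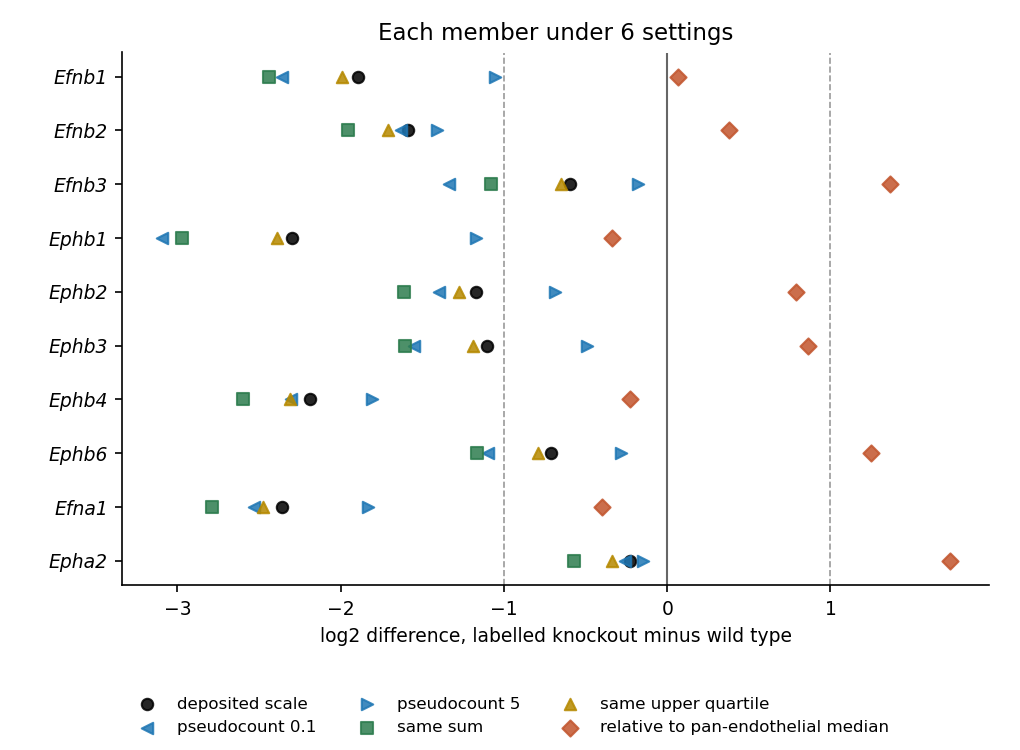
Difference of each of the 10 genes, knockout-labelled library minus wild type, under 6 settings, as log2. Dashed lines mark 2-fold. All 10 lie below 0 at each pseudocount and library scaling plotted, and 7 lie above 0 once the pan-endothelial median of -1.96 is subtracted.

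Genes of arterial, venous and valve fate were compared because Efnb2 and Ephb4 belong to these programmes. These lists share genes with the marker lists above, so they are not separate evidence. Of the venous list, Flt4, Nr2f2 and Nrp2 are also LEC markers, and Emcn and Tie1 are also pan-endothelial. Sox17 is both arterial and pan-endothelial, and Foxc2, Itga9 and Prox1 are both valve genes and LEC markers. Of all tested genes, 15.49% were lower and 16.8% higher by 2-fold or more. Of 7 venous markers 6 were lower by 2-fold or more in the knockout-labelled library (median -2.22). The lowest differences were in the apelin receptor Aplnr (-3.97), Emcn (-2.46), which encodes endomucin, and Flt4 (-2.27), the receptor for VEGF-C. The least lowered were Nrp2 (-2.03), Tie1 (-1.86) and Vwf (-0.88). Of 15 arterial markers 8 were lower by 2-fold or more and none was higher (median -1.22), but only 3 were lower to that extent with a pseudocount of 5 (median -0.73). The connexin gene Gja4 (-3.26) and the Notch targets Hey1 (-2.50) and Hey2 (-1.78) differed most, while Notch1 (-0.35), Acvrl1 (-0.11) and Cxcr4 (0.39) lay within 2-fold. Whether the arterial and venous lists differ from each other was not tested. Among 17 valve genes 8 were lower by 2-fold or more and 2 were higher (median -0.88), from Cldn11 (-3.70), Gja4 (-3.26) and Sema3a (-2.67) to Fn1 (0.35), Itga9 (1.54) and Gata2 (3.43). Gata2 is also a member of the mast cell list, whose other 8 genes were higher in the same library, and their part in its value was not tested.

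Genes that carry Eph signals had values on both sides. Of 33 tested genes for forward signalling 6 were lower by 2-fold or more and 10 higher by 2-fold or more, beside 15.49% and 16.8% of all tested genes, with a median of 0.12. With both libraries at a sum of 1000000 the counts were 6 and 7 and the median was -0.23, beside a median of -0.33 for all genes. The lowest were the adaptor Grb10 (250.0 and 38.2 FPKM), Sh2d3c (14.7 and 2.38 FPKM), which encodes an Eph-binding scaffold, and the Src family kinase Yes1 (71.3 and 18.9 FPKM). The highest were Ptpro, a phosphatase of Eph receptors (0.194 and 7.79 FPKM), the Rac exchange factor Tiam1 (4.11 and 24.5 FPKM) and Anks1 (4.51 and 20.5 FPKM), whose product Odin binds Eph receptors. Rasa1, the Ras GTPase-activating protein that EphB4 recruits, was 47.0 and 42.0 FPKM, and was chosen after its value was seen. Macrophage and mast cell markers were higher in the library where these genes were higher, and their part was not tested.

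Partners of the ephrin-B tail were also divided. Of 9 tested genes 2 were lower by 2-fold or more and 2 higher, beside 15.49% and 16.8% of all tested genes. Their median was -0.18, and it was 0.28 with a minimum of 5 FPKM. The polarity gene Pard3 was 18.0 and 4.63 FPKM, Rgs3, whose PDZ form binds ephrin-B, was 21.0 and 6.97 FPKM, and the PDZ scaffold Grip1 was 1.08 and 0.114 FPKM. Dab2, the clathrin adaptor that acts with ephrin-B2 in receptor uptake and is also made by macrophages, was 39.3 and 332 FPKM, Dvl2 5.82 and 17.6 FPKM, and Sdcbp, which encodes the PDZ protein syntenin, 93.9 and 170 FPKM.

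**Figure D5:**
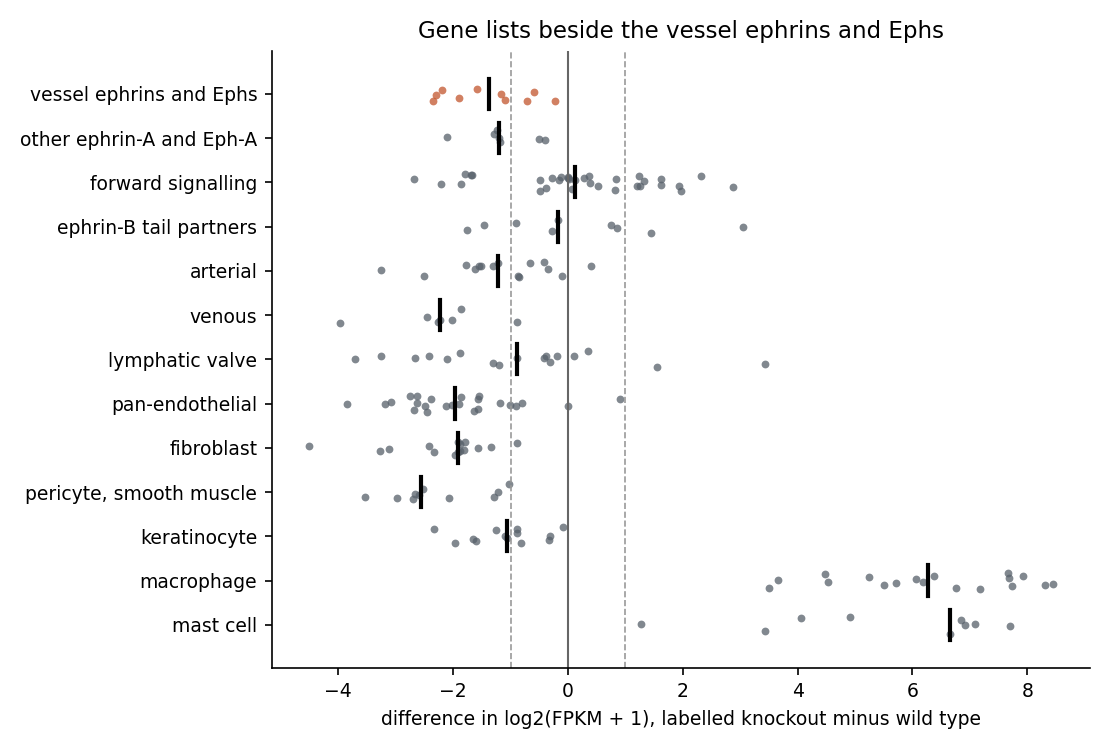
Difference in log2(FPKM + 1), knockout-labelled library minus wild type, for each tested gene (point) of 13 lists, with a black bar at the list median and dashed lines at 2-fold. The vessel ephrins and Ephs (median -1.38) lie below 0, as do the medians of the endothelial, stromal and keratinocyte lists (keratinocyte median -1.07). Forward signalling genes spread around 0 (median 0.12), and macrophage and mast cell markers lie far to the right.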

How the data were processed

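The authors deposited 1 list per library, with gene symbols and 1 value each. The values were taken as FPKM because Cufflinks 2.2.1 and Cuffnorm appear in the submitters' processing notes, beside STAR 2.5.2b, R 3.3.2 and build mm9. The annotation, the scaling between libraries and whether counting used strand are not stated. Per the labels' protocols, RNA was pooled from 2 to 3 biological replicates with an integrity number above 7.0 and made into ScriptSeq v2 libraries. A growth protocol for cultured dermal LECs is also given, and whether the sequenced cells were cultured is not stated.

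Differences were computed as log2(FPKM + 1), labelled knockout minus wild type, in Python 3.11.15 with pandas 2.3.3 and scipy 1.17.1. Genes at 1 FPKM or more in at least 1 library were tested for a 2-fold difference, and the calculation was tested on simulated data. With 1 library per genotype no test was made, and a value of exactly 0 can be a failed estimate. Depth was estimated from 500 candidate steps, using values of up to 5 fragments in transcripts of at least 2500 nt. Transcript lengths came from GENCODE M21. Genes named are all ephrin and Eph genes and the 3 highest and 3 lowest of each signalling, arterial, venous and valve list. Genes that these lists share with marker lists are named too. The members and lists were chosen with earlier results of these data known. The result of 1 planned list is not reported here. Alternatives were pseudocounts, library scalings, minimum levels, thresholds and the pan-endothelial reference.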

Additional observations from a re-analysis of the deposited data

How the results depend on the processing

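No paired analysis was possible because there is a single library of each genotype, and no replicate could be left out. All 10 genes stayed lower in the knockout-labelled library under pseudocounts of 0.1 and 5, under each of 4 library scalings and with no minimum, as did the 7 members at 5 FPKM or more. The count of 7 members lower by 2-fold or more was between 5 and 9 under these settings, and was 4 at a 3-fold threshold. Shares of all genes are given above for the main setting and the common sum only. Counts under the other settings therefore have no such share beside them. With a pseudocount of 5 the median of the members was -0.87 and the log2 ratio of Efnb2 to Ephb4 in the knockout-labelled library was 0.80, against 1.04 with a pseudocount of 1. Efnb3 and Ephb6 passed 2-fold with a pseudocount of 0.1 (-1.33 and -1.10) or each library at a sum of 1000000 (-1.08 and -1.16). Relative to the pan-endothelial median, and with a pseudocount of 1, 0 members were lower by 2-fold or more and 3 higher by 2-fold or more. The median of the members was then 0.58. On this reference 7 members changed sign, namely Efnb1 (0.066), Efnb2 (0.38), Ephb2 (0.79), Ephb3 (0.86), Ephb6 (1.25), Efnb3 (1.36) and Epha2 (1.73). Such a change follows from subtracting a median of -1.96. These relative calls depend on the pseudocount, as given above for 0.1. Small RNAs took 2.53% of the summed FPKM in wild type and 15.1% in the knockout-labelled library. Leaving them out gave 9 members lower by 2-fold or more, while the median of all genes moved to -0.14. The forward signalling median was also below 0 at the same upper quartile (-0.0061) and with small RNAs left out (-0.029). Arterial genes lower by 2-fold or more numbered 4 at a 3-fold threshold and 11 at a sum of 1000000, against 8. Depth limits Efnb3 most, at about 32 and 10 fragments.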
